A study of Drosophila melanogaster with 72 samples.

Results

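Males carrying the mitochondrial haplogroup I02, from an Ithaca line, were compared with males carrying either of the Beijing haplogroups B38 and B39. The 36 libraries of these 3 haplogroups, of 72 in the series, were chosen by their labelled haplogroup: 12 for I02, 12 for B38 and 12 for B39. Each haplogroup was combined with the same 6 Y haplotypes, of which B04 and B11 are of Beijing origin, N03 and N07 Dutch, ZH23 and ZW139 Zimbabwean. This gives 18 of the series' 36 combinations.

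Every combination had 2 libraries, each made from 10 pooled whole males of Drosophila melanogaster aged 3 to 5 days and each from its own cross. Mothers came from mitochondrial replacement lines and fathers from Y replacement lines, and the submitters describe both kinds of line as having 1 nuclear background in common. The labels name no other allele or treatment. A son takes his X chromosome from the mother who gave him his mitochondria, so effects of haplogroup and of maternal X cannot be told apart. I02 was the 1 haplogroup from Ithaca, so that haplogroup, line and place of origin cannot be told apart either. All 36 libraries are labelled batch 1. RNA was read from the 3' end of polyadenylated transcripts with the Lexogen QuantSeq kit, and levels are given as CPM, counts scaled by library size, without correction for gene length.

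The mitochondrial genome of animals encodes core subunits of respiratory complexes I, III, IV and V together with the rRNAs and tRNAs that translate them. All other mitochondrial proteins, including most respiratory subunits, the mitochondrial ribosome and the import machinery, are encoded in the nucleus and must work with those mitochondrial products. Mitochondria pass through mothers, so that variants which affect males alone are not exposed to selection in males, and males with different haplogroups on a common nuclear background are used to look for such effects.

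Counts in genes ranged from 3675890 to 6004891 per I02 library, from 4093732 to 7286345 per B38 library and from 3375070 to 7671784 per B39 library, with a median of 5114870 over all 36. In 5 libraries more than 20% of reads were multi-aligned, that is, they matched several places in the genome. The median was 11.5%, and 4 of the 5 were B38 libraries. They are replicate 1 of mtB38_YB11 (35.5%), mtB38_YB04 (33.6%), mtB38_YN03 (28.7%) and mtB38_YN07 (24.9%), and of mtI02_YN03 (29.2%). Results that rest on B38 are therefore given with and without these 5 libraries. Only 1 of 36 libraries had the other library of its combination as its closest. The p-values measure the spread between these libraries. Male markers were as labelled in all 36, with roX1, the noncoding RNA of male X-chromosome dosage compensation, at 350 to 1328 CPM in I02 and 407 to 1780 in Beijing. Of 18 female and egg markers 7 had enough counts to be tested, their summed level was 37.2 to 53.3 CPM in I02 and 27.7 to 54.4 in Beijing, and the eggshell gene Cp36 was at 0 in 12 of 12 and 20 of 24 libraries. In RNA of whole flies, fewer cells of a type and less RNA per cell cannot be told apart.

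Few genes were called between I02 and Beijing males. Of 12308 genes tested, 4 rose in I02 against the mean of B38 and B39 (0.0325% of genes tested) and 0 fell, at a Benjamini-Hochberg adjusted p under 0.05 in edgeR's quasi-likelihood test with the Y haplotype in the model. At an unadjusted p under 0.05 there were 978 genes (7.95%), 488 higher and 490 lower. The genes that rose were kkv, which encodes a chitin synthase, the sugar transporter gene sut2, and the noncoding RNAs lncRNA:CR45936 and asRNA:CR44137. All 4 were higher in I02 on 6 of 6 Y haplotypes, as were 2% of all genes tested. In each of them 12 of 12 I02 libraries lay above the Beijing median. The same libraries chose these genes, so both counts are descriptions. By DESeq2, a second count method, 12 genes were called, 3 higher and 9 lower. Of the 4 genes that rose in edgeR it called sut2 (adjusted p = 0.00276) and gave no adjusted p for kkv, lncRNA:CR45936 and asRNA:CR44137. Without the 5 libraries the edgeR count was 1 (0.00801%), kkv. The count fell to 2 without mtB39_YZH23 replicate 2 or without any of mtI02_YB04 replicate 2, mtI02_YN03 replicate 1, mtI02_YN07 replicate 2, mtI02_YZH23 replicate 2 and mtI02_YZW139 replicate 2.

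The gene krotzkopf verkehrt, kkv (3R, 5378093 to 5392866, minus strand, assembly BDGP6.54), makes the chitin of the insect cuticle and tracheae. Its level in I02 libraries ranged from 1.76 to 7.20 CPM with a median of 4.50, against 0.763 to 2.97 CPM with a median of 1.59 in the 24 Beijing libraries. In I02, 9 of 12 libraries lay above every Beijing library, and the 3 within the Beijing range were mtI02_YB04 replicate 2, mtI02_YZH23 replicate 2 and mtI02_YZW139 replicate 1. The log2 fold change was 1.50 ± 0.19 (SE, 95% interval 1.12 to 1.88, adjusted p = 3.27e-05). These levels rest on 7 to 35 reads per I02 library and 3 to 20 per Beijing library. The 2 Beijing haplogroups had like levels, 1.64 ± 0.614 CPM in B38 and 1.51 ± 0.472 in B39 (SD, n = 12 each), against 4.61 ± 1.91 in I02. Against B38 alone the log2 fold change was 1.44 ± 0.22 (adjusted p = 0.00102) and against B39 alone 1.55 ± 0.23 (0.000947), 2 comparisons that share the I02 libraries. kkv was the 1 gene of 12308 called against both haplogroups (0.00812%, adjusted p of the larger of both p-values 0.00306), where 180 genes (1.46%) had both unadjusted p-values under 0.05 in 1 direction. Without the 5 libraries the difference from the Beijing mean was 1.34 (adjusted p = 0.00265), that from B39 1.50 (0.00345) and that from B38 1.17 (0.184), which left 0 of 12491 genes called against both.

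Around kkv, 15 other genes within 50 kb were tested, with log2 fold changes between -0.24 and 0.41, and none was called. CG14668, which overlaps kkv on its strand, had 0.27 ± 0.13 (adjusted p = 0.583), and reads that fall on both cannot be assigned with certainty. The other neighbours at an unadjusted p under 0.05 were mtd, at -0.24, and hd, at 0.41. kkv is not on the list of cuticle protein genes, none of which was called against the Beijing mean.

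The sugar transporter gene sut2 (2R, 8087396 to 8089297, plus strand) lies in a row with its relatives sut1 and sut3. In I02 it ranged from 5.51 to 10.5 CPM with a median of 8.57, and in Beijing from 3.29 to 8.78 CPM with a median of 5.05. The groups overlapped, with 6 of 12 I02 libraries above all Beijing libraries. Its log2 fold change was 0.65 ± 0.12 (95% interval 0.40 to 0.89, adjusted p = 0.0279), and it was 0.58 against B38 (adjusted p = 0.0623) and 0.71 against B39 (0.0367). The neighbours did not pass the test, sut1 with 0.04 ± 0.14 and sut3 with 0.19 ± 0.16. It stood at 0.55 (adjusted p = 0.218) without the 5 libraries. Its call was also lost without 1 of 9 single libraries, with an adjusted p up to 0.105 without mtI02_YZH23 replicate 2. The others were mtI02_YB04 and mtI02_YN07, either replicate, mtI02_YZW139, either replicate, mtI02_YN03 replicate 1 and mtB39_YZH23 replicate 2.

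The noncoding RNA lncRNA:CR45936 (3L, 18243700 to 18244239, plus strand), to which no role is assigned here, had the highest log2 fold change of the 4. Its I02 libraries ranged from 0.352 to 4.44 CPM with a median of 1.26, and its Beijing libraries from 0 to 1.35 CPM with a median of 0.252. In Beijing 7 of 24 libraries held no read of it, and 5 of 12 I02 libraries lay above all 24. The log2 fold change was 2.36 ± 0.39 (adjusted p = 0.0038), 1.92 ± 0.44 against B38 (0.0444, and 0.496 without the 5 libraries) and 2.79 ± 0.49 against B39 (0.00913). Judged by the larger of both p-values, as for kkv, its adjusted p was 0.579. The highest levels in I02 were those of mtI02_YN03 replicate 1, 1 of the 5 libraries, and of mtI02_YB04 replicate 1. Leaving out the 5 gave a difference of 2.23 (adjusted p = 0.0881). Like kkv, it was called in all 36 fits that left out 1 library.

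The antisense RNA asRNA:CR44137 (3R, 11637177 to 11638553, plus strand) overlaps Csk, which encodes a kinase that restrains Src kinases and lies on the minus strand. The RNA ranged from 1.68 to 4.92 CPM in I02 with a median of 2.85, and from 0.186 to 2.67 CPM in Beijing with a median of 1.23. Of the I02 libraries 6 lay above all Beijing libraries, and the other 6 within their range. The log2 fold change was 1.16 ± 0.22 (adjusted p = 0.0282), 1.18 against B38 (0.0416, and 0.508 without the 5 libraries) and 1.15 against B39 (0.105). Csk itself had -0.10 ± 0.18 (adjusted p = 0.906), and the kit keeps the strand, but whether the counting used it is not stated, so reads of the pair may not be told apart. With the 5 libraries left out, the difference was 1.05 (adjusted p = 0.218). The call was lost without 1 of 15 single libraries, with an adjusted p of 0.204 without mtI02_YZH23 replicate 2, 0.111 without mtI02_YB04 replicate 2, and 0.0508 to 0.0847 in the other 13. Those were replicate 2 of mtI02_YB11, mtI02_YN07, mtI02_YZW139, mtB38_YN07, mtB38_YZH23, mtB38_YZW139 and mtB39_YZH23, both replicates of mtI02_YN03 and mtB39_YN03, and replicate 1 of mtB39_YB04 and mtB39_YB11. Within 50 kb 18 other genes were tested, with log2 fold changes between -0.37 and 0.52, and none was called against the Beijing mean. The 2 at an unadjusted p under 0.05 were CG14715, at -0.37, and CG6830, at 0.52. CG6830 was called against B38 (1.17, adjusted p = 0.0416), a call lost without the 5 libraries.

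**Figure D1:**
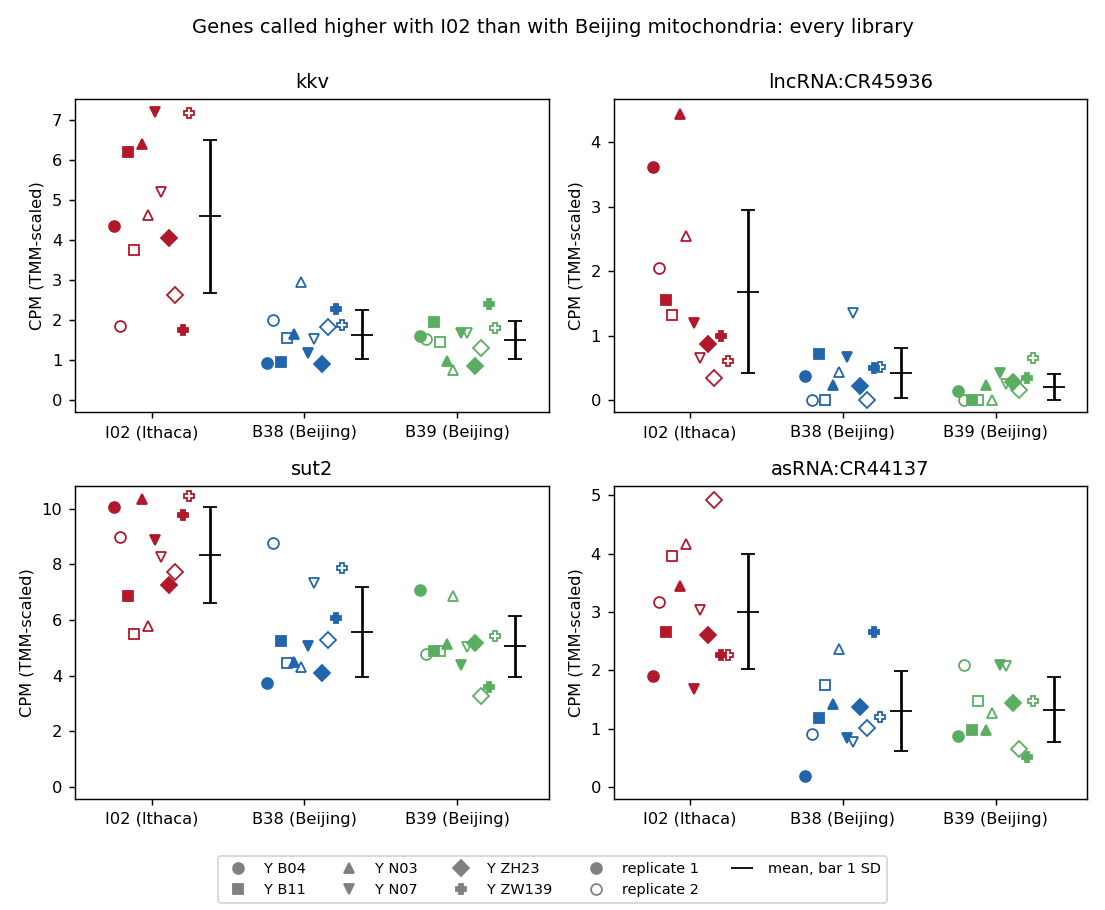
Level in CPM (vertical axes) of kkv, lncRNA:CR45936, sut2 and asRNA:CR44137 in each library of I02, B38 and B39. Marker shapes stand for the Y haplotype, filled and open markers for replicates 1 and 2, and bars for the mean ± SD over 12 libraries. In kkv, 9 I02 libraries lie above all Beijing libraries, and in the other genes 5 or 6 do.

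Complete separation of the groups was not seen for any gene: 0 of 12308 had all 12 I02 libraries above all 24 Beijing libraries, and 0 had all 12 below. At least 9 I02 libraries lay above all Beijing libraries in 3 genes (0.0244%), among them kkv and CG15353. CG15353 stood at a log2 value of 0.64 ± 0.19 (adjusted p = 0.338), and 1 I02 library lay below all Beijing libraries. A difference in 1 direction on all 6 Y haplotypes was found for 246 genes higher (2%) and 364 genes lower (2.96%) in I02.

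Whether the difference between I02 and Beijing depended on the Y haplotype was asked gene by gene with a test of 5 degrees of freedom. It called 0 genes in edgeR (374 at an unadjusted p under 0.05, 3.04%), and 2 by DESeq2, lncRNA:CR45883 and CG18324. The edgeR count was 50 without mtI02_YN03 replicate 2, which left mtI02_YN03 replicate 1, with 29.2% of reads multi-aligned, as the 1 library of its combination, and 0 without any other single library. Among the genes that rose, the log2 difference in kkv ran from 0.71 on the ZW139 Y to 1.78 on the N07 Y. In sut2 it ran from 0.32 to 0.82, in asRNA:CR44137 from 0.63 to 1.44, and in lncRNA:CR45936 from 0.37 to 2.65. With 2 I02 libraries on each Y, these single values carry wide errors, and none of the 4 genes was called in the test by Y.

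**Figure D2:**
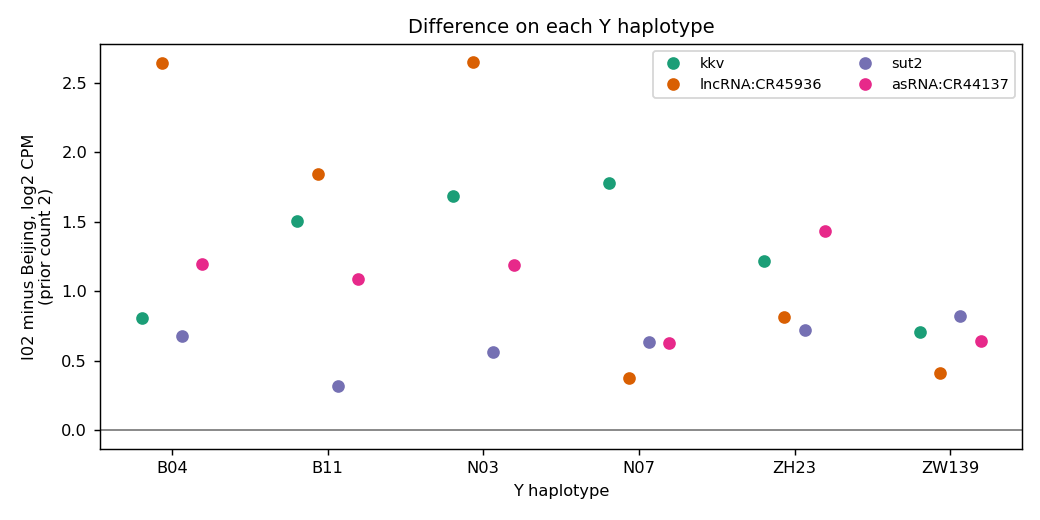
Difference between the mean of the I02 and the mean of the Beijing libraries in log2 CPM (vertical axis, prior count of 2) on each of the 6 Y haplotypes (horizontal axis), for the 4 genes that rose in I02. All 24 points lie above 0, from 0.32 for sut2 to 2.65 for lncRNA:CR45936.

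By the larger of both p-values, lncRNA:CR45936, asRNA:CR44137 and sut2 came next after kkv, all higher in I02 and none called against both. The last of these, sut2, had an adjusted p of 0.841 by that measure. The genes dsb and spz followed, both lower in I02 and not called. The gene dsb ranged from 10.3 to 15.4 CPM in I02 with a median of 11.0, and from 9.55 to 26.9 CPM in Beijing with a median of 17.6, and 0 of 12 I02 libraries lay above the Beijing median. Its log2 fold change against the Beijing mean was -0.59 ± 0.13 (95% interval -0.85 to -0.33, adjusted p = 0.0904 against that mean). spz, which encodes Spätzle, the ligand of the Toll receptor, ranged from 10.9 to 19.9 CPM in I02 with a median of 16.1 and from 13.8 to 34.0 CPM in Beijing with a median of 22.5. For spz the log2 fold change against the Beijing mean was -0.49 ± 0.11 (95% interval -0.72 to -0.27, adjusted p = 0.13 against that mean). The groups overlapped in both genes.

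Against each Beijing haplogroup alone, more genes passed than against their mean. I02 differed from B38 in 36 genes (0.292%), 8 higher (0.065%) and 28 lower (0.227%), and 1819 genes (14.8%) had an unadjusted p under 0.05. From B39 it differed in 11 genes (0.0894%), 5 higher (0.0406%) and 6 lower (0.0487%), and 798 genes (6.48%) had an unadjusted p under 0.05. The 2 comparisons use the same I02 libraries. For scale, B38 and B39 differed from each other in 13 genes (0.106%) in the same fit. Genes called against 1 haplogroup alone were not thereby shown to differ between B38 and B39.

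**Figure D3:**
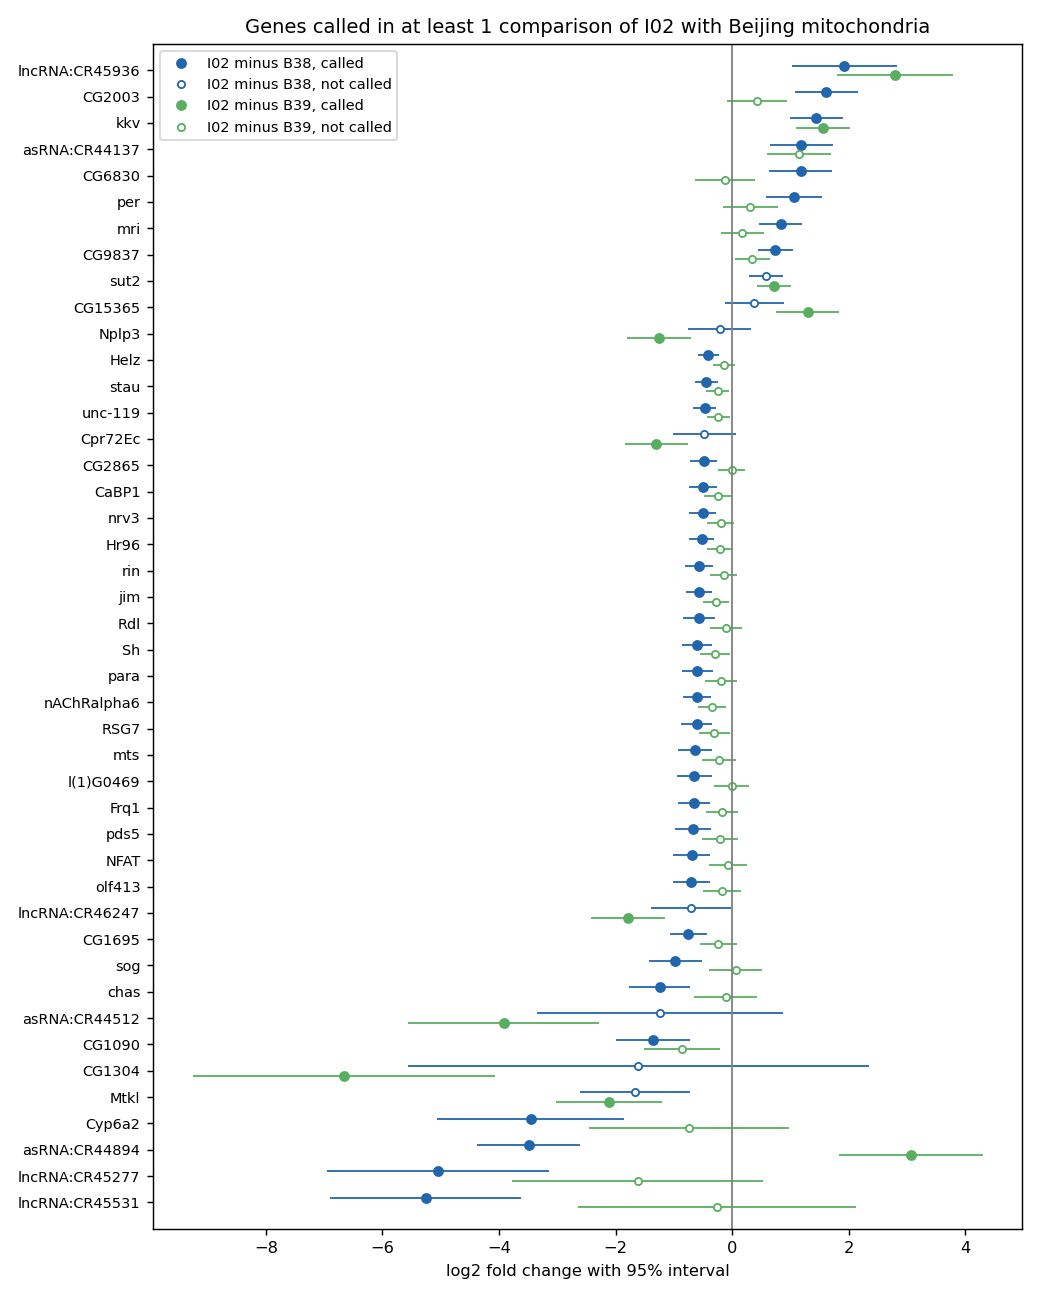
Log2 fold change of I02 over B38 and of I02 over B39 (horizontal axis) for the 44 genes called in at least 1 of the 3 comparisons, with 95% intervals. Filled symbols mark an adjusted p under 0.05. kkv and lncRNA:CR45936 are filled in both comparisons, each adjusted on its own, and asRNA:CR44894 is filled in opposite directions. CG1304 and lncRNA:CR45277 have levels at or near 0 in I02, so that their fitted values are no bounds.

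Genes of excitable cells stood among those lower in I02 than in B38. Of the 19 neuronal genes tested, 4 fell against B38, where 0.227% of all genes fell: Sh and para, which encode a voltage-gated potassium and a voltage-gated sodium channel, Rdl, a GABA receptor, and nrv3, a subunit of the sodium pump of neurons. None of the 19 was called against B38 without the 5 libraries, and the list's median log2 fold change was -0.15 in place of -0.41. Sh ranged from 76.6 to 115 CPM in I02 with a median of 94.5, and from 104 to 240 in B38 with a median of 128, so that the groups overlapped at their edges. Sh had a log2 fold change of -0.60 ± 0.13 (adjusted p = 0.0281). para ranged from 68.0 to 133 CPM in I02 and from 108 to 257 in B38, with medians of 108 and 143. Its log2 difference was -0.60 ± 0.13 (adjusted p = 0.0416). Outside the list, nAChRalpha6, a subunit of nicotinic acetylcholine receptors, fell by 0.60 on the log2 scale (adjusted p = 0.0237), a call lost without the 5 libraries (-0.46, adjusted p = 0.453). Also lower were stau, for the RNA-binding protein Staufen (-0.45), the nuclear receptor gene Hr96 (-0.53), NFAT (-0.69) and sog, for the BMP antagonist Short gastrulation (-0.98). With the 5 libraries left out, the values were -0.39 for stau (adjusted p = 0.362), -0.46 for Hr96 (0.349), -0.38 for NFAT (0.525) and -0.39 for sog (0.712), none called. Against B39 the values of these genes were -0.29 for Sh, -0.19 for para, -0.35 for nAChRalpha6 and 0.06 for sog, none called.

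In most of these genes the 4 multi-aligned B38 libraries lay farther from I02 than the other 8 B38 libraries. In Sh the 4 such B38 libraries averaged 197 CPM and the other 8 averaged 119. In sog the same means were 95.8 and 40.1 CPM, against 29.4 in I02. Of the 28 genes lower in I02, the 4 libraries lay farther from I02 than the other 8 on average in 24, and they were fully apart from the other 8 in 9. Of the 8 genes higher in I02 the same held in 7 and in 2. The mean of the other 8 B38 libraries lay on the same side of I02 in 28 of the 28 and 8 of the 8 genes, and that of B39 in 26 and 7. All 12 B38 libraries and the I02 libraries chose these genes, and B39 was set against the same I02 libraries. The counts, that of B39 included, are therefore descriptions, and no share over all genes stands beside them. Without the 5 libraries, I02 differed from B38 in 2 genes (0.016%), asRNA:CR44894 and lncRNA:CR45531, with Sh at -0.32 (adjusted p = 0.525) and para at -0.35 (0.555). Fewer libraries enter that fit, and what the share of multi-aligned reads reflects was not tested.

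The count against B38 also moved with single libraries, from 4 to 517. It was 4 without mtB38_YB04 or mtB38_YB11 replicate 1, 5 without mtI02_YN07 replicate 1 or mtI02_YB04 replicate 2, and 6 without mtB38_YN03 replicate 1. It was 7 without mtI02_YZH23 replicate 2, 9 without mtI02_YB11 replicate 1 and 10 without mtB38_YN07 replicate 1. Counts of 15 to 17 were obtained without mtI02_YN07 replicate 2, mtI02_YB04 replicate 1, mtB39_YZH23 replicate 2, mtB39_YN03 replicate 2, mtB39_YZW139 replicate 2 or mtB38_YZH23 replicate 1. It was 22 without mtI02_YB11 or mtI02_YN03 replicate 2 and 23 without mtB39_YZW139 replicate 1. The 517 genes were called without mtI02_YZH23 replicate 1, the library next below the limit of 20% multi-aligned reads. In all 36 such fits kkv, CG2003, asRNA:CR44894 and lncRNA:CR45531 were called against B38, and each of the other 32 genes was lost in 4 or more, among them Sh in 8 and para in 13.

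Genes that rose against B38 were CG2003, CG6830, CG9837, the clock gene per, mri, kkv and the 2 noncoding RNAs already described. CG2003 had a mean of 20.3 ± 5.61 CPM in I02, 6.59 ± 2.25 in B38 and 15.8 ± 9.22 in B39 (SD, n = 12 each), with a log2 fold change of 1.62 ± 0.26 over B38 (adjusted p = 0.00185) and 0.43 ± 0.25 over B39 (0.894). Its call against B38 was lost without the 5 libraries (1.49, adjusted p = 0.184), as were those of CG6830, CG9837 and mri. The gene period, per, whose protein represses its own transcription in the daily clock, ranged from 3.52 to 17.3 CPM in I02 with a median of 8.08, and from 2.38 to 8.88 CPM in B38 with a median of 3.81. Its log2 fold change over B38 was 1.05 ± 0.24 (adjusted p = 0.0416), and 0.81 (0.525) without the 5 libraries. Against the Beijing mean, 2 of 10 clock genes were higher and 1 lower at an unadjusted p under 0.05. These were per at 0.68 (adjusted p = 0.319), vri, which encodes a repressor of Clk transcription, at 0.41 (0.47), and Clk, which encodes the activator of per, at -0.47 (0.535).

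Cyp6a2, a cytochrome P450 gene known for its part in insecticide resistance, was lower in I02 than in B38, and within I02 it was high on 1 Y haplotype. Both I02 libraries with the ZH23 Y were high, at 50.4 and 82.6 CPM, and the other 10 lay between 0.82 and 2.78. In B38 the level ranged from 1.01 to 142 CPM with a median of 33.5, and its 2 libraries with the ZH23 Y were again the highest, at 142 and 135. In B39 it ranged from 0 to 102 CPM, with 1.44 and 68.6 in the libraries with the ZH23 Y. The log2 fold change over B38 was -3.46 ± 0.79 (adjusted p = 0.0428), that over B39 was -0.74 ± 0.84 (1), and without the 5 libraries the first was -3.03 (0.453). Cyp6a2 was not called in the test by Y haplotype.

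Several noncoding RNAs of the X chromosome were among the strongest differences from a single Beijing haplogroup. asRNA:CR44894 had a mean of 3.51 ± 3.88 CPM in I02, which lay between 37.0 ± 18.3 in B38 and 0.415 ± 0.358 in B39 (SD, n = 12 each). All 12 B38 libraries, from 13.9 to 71.6 CPM, lay above all 12 I02 libraries, from 0 to 11.3 CPM. Over B38 it had a log2 value of -3.49 ± 0.43 (adjusted p = 3.04e-05) and over B39 one of 3.07 ± 0.61 (0.0362), and both calls held without the 5 libraries (-3.03 with 0.000319, and 3.20 with 0.0135). Against the mean of both it was -0.21 ± 0.57 (adjusted p = 0.94). The call over B39, unlike that over B38, was lost when some single libraries were left out. In I02 the median was 0.536 CPM in the 6 libraries of replicate 1, close to the B39 mean, and 5.40 CPM in the 6 of replicate 2. The 12 other genes within 50 kb that were tested had log2 fold changes between -0.29 and 0.31 against the Beijing mean, and none was called. The annotation places 5 of them over the span of asRNA:CR44894, among them Ypel on the same strand, at 43.7 CPM in I02 and 48.4 in Beijing. Reads that fall on both genes of such a pair cannot be assigned with certainty, and whether the counting used the strand is not stated.

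lncRNA:CR45531 was under 1 CPM in all 12 I02 libraries and ranged from 0.148 to 97.1 CPM in B38 with a median of 1.13. High levels were limited to 4 B38 libraries, mtB38_YN03 replicate 1, both with the ZH23 Y and mtB38_YZW139 replicate 2, at 10.8 CPM or more. The log2 fold change over B38 was -5.26 ± 0.81 (adjusted p = 0.00102), and -5.08 (0.0237) without the 5 libraries. B39 was like I02, with means of 0.344 and 0.324 CPM and a log2 fold change of -0.26, not called. B38 and B39 themselves differed in this RNA (adjusted p = 0.0022). lncRNA:CR45277, on chromosome 2R, had 0 reads in the 12 I02 libraries together and 52 in those of B38. Taking 3 counts over the group as the floor, it was 14.6-fold lower. In B39 it was also at 0 in 10 of 12 libraries, with a mean of 0.0409 CPM. The exact 95% counting interval, which also takes in the error of the 52 reads, puts the lower bound at 11.4-fold. This RNA did not pass the filter on low counts without the 5 libraries. Such limits cover counting error only, as reads without molecular identifiers are not independent molecules.

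On the X chromosome lay 14.9% of the genes tested. It held 0 of the 4 genes called against the Beijing mean, 14 of the 36 called against B38, 13 of them lower, and 5 of the 11 called against B39. The median log2 fold change of X-linked genes against the Beijing mean was -0.01 and that of all genes 0.01.

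Against B39, the genes that fell in I02 included a peptide precursor, a cuticle protein and an antimicrobial peptide. Nplp3, which encodes a neuropeptide-like precursor, ranged from 24.4 to 162 CPM in I02 with a median of 48.5, and from 39.6 to 242 in B39 with a median of 140. Nplp3 had a log2 fold change of -1.26 ± 0.27 (adjusted p = 0.0448). The cuticle protein gene Cpr72Ec ranged from 12.6 to 108 CPM in I02 with a median of 25.7, and from 25.5 to 208 in B39 with a median of 70.7, a log2 difference of -1.30 ± 0.27 (adjusted p = 0.0367). In both genes the groups overlapped over much of their range. Against B38 the log2 fold changes were -0.22 for Nplp3 and -0.48 for Cpr72Ec, neither called. Each had an adjusted p of 0.0914 against B39 without the 5 libraries.

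Mtkl, a relative of the antifungal peptide gene Mtk, ranged from 0.205 to 6.61 CPM in I02 with a median of 1.59, and from 1.72 to 79.6 in B39 with a median of 4.98. The highest B39 library, mtB39_YZH23 replicate 2, stood far above the next at 13.9 CPM. Over B39 the log2 fold change was -2.12 ± 0.45 (adjusted p = 0.0448), with an adjusted p of 0.199 without that library. Over B38 it was -1.67 ± 0.46 (0.0952) and over the Beijing mean -1.89 ± 0.41 (0.0904). Mtkl was lower in I02 on 6 of 6 Y haplotypes, as were 2.96% of all genes tested.

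CG1304 had 2 reads in I02 and 521 in B39, a ratio of 222 for B39 over I02 (exact 95% counting interval 61.3 to 1842). All of the B39 reads came from 4 libraries at 8.26 to 34.5 CPM, both with the B04 Y, mtB39_YB11 replicate 1 and mtB39_YZH23 replicate 2, while the other 8 held none. B38 was low as well, with 8 reads and 10 of 12 libraries at 0, as in I02. lncRNA:CR46247 ranged from 0 to 1.45 CPM in I02 and from 0.647 to 2.88 in B39, a log2 difference of -1.79 ± 0.31 (adjusted p = 0.00913), called also without the 5 libraries. asRNA:CR44512 was at 0 in 9 of 12 I02 and 4 of 12 B39 libraries (log2 fold change -3.92 ± 0.81, adjusted p = 0.0367). Against B38, with 6 of 12 libraries at 0, it was -1.24 (adjusted p = 0.596). CG15365 rose against B39, from 2.23 ± 0.851 CPM to 5.47 ± 2.58 in I02 (SD, n = 12 each), a log2 difference of 1.29 ± 0.26 (adjusted p = 0.0367). In B38 CG15365 averaged 4.22 CPM, and I02 did not differ from it in the test (0.38, adjusted p = 0.493).

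Without the 5 libraries 4 genes were called against B39 (0.032%), which were kkv, asRNA:CR44894, lncRNA:CR46247 and lncRNA:CR45936. Leaving out single libraries gave 3 to 21 genes. The count was 3 without mtB39_YB04 replicate 2, mtB39_YB11 replicate 1, mtB39_YZH23 replicate 2, mtI02_YB04 replicate 2 or mtI02_YZH23 replicate 2, and 4 without mtI02_YB04 replicate 1, mtB39_YB04 replicate 1 or mtB39_YN07 replicate 2. It was 5 to 7 without mtI02_YN07 or mtI02_YN03, either replicate, without replicate 1 of mtI02_YB11, mtI02_YZH23, mtI02_YZW139 and mtB39_YZW139, or without mtB39_YN03 replicate 2. It was 21 without mtI02_YB11 replicate 2. In all 36 fits kkv, lncRNA:CR45936 and lncRNA:CR46247 were called, and each of the other 8 genes was lost in 9 or more.

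The genes of the mitochondrial genome itself were measured next, since the groups differ in it. Together its 37 features took 0.832% to 5.08% of counts in I02 libraries with a median of 1.91%, and 0.668% to 4.56% in Beijing libraries with a median of 1.92%. Of 35 features tested 0 were called, 1 was higher and 2 lower at an unadjusted p under 0.05. Above 0 lay 27 of the 35, where 52.7% of all genes did. In many of the 27 the median was nonetheless lower in I02 than in Beijing, and in others it was higher, so the count shows no general rise. mt:tRNA:Cys-GCA, at 0.44, had a median of 4.04 CPM in I02, with its highest library at 256, and of 8.03 in Beijing. For mt:tRNA:Ala-TGC the medians were 59.0 and 54.2 CPM. mt:ND3, a subunit of complex I, ranged from 1.49 to 14.6 CPM in I02 with a median of 3.54, and from 1.10 to 29.4 in Beijing with a median of 6.26. Its log2 fold change was -1.13 ± 0.38 (95% interval -1.91 to -0.35, adjusted p = 0.398), and against B38 it was -1.56 (0.0854). Without the 5 libraries these values were -0.88 (adjusted p = 0.573) and -0.86 (0.688). mt:CoI, the catalytic subunit of cytochrome c oxidase, had -0.39 ± 0.18 (interval -0.76 to -0.03, adjusted p = 0.583), and -0.16 without the 5 libraries. The gene for the tRNA of alanine, mt:tRNA:Ala-TGC, had 0.83 ± 0.33 (adjusted p = 0.515).

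The other protein-coding genes of the mitochondrial genome lay between -0.55 for mt:ND6 and 0.80 for mt:Cyt-b, the subunit of complex III, whose interval ran from -0.03 to 1.62. The rRNAs had 0.04 (mt:lrRNA, interval -1.20 to 1.28) and 0.30 (mt:srRNA). The kit primes on poly(A), so that the levels of these RNAs also depend on their polyadenylation, and whether reads of the 3 haplogroups aligned equally well to 1 reference sequence was not tested. The interval of mt:lrRNA takes in differences of 2-fold in either direction.

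**Figure D4:**
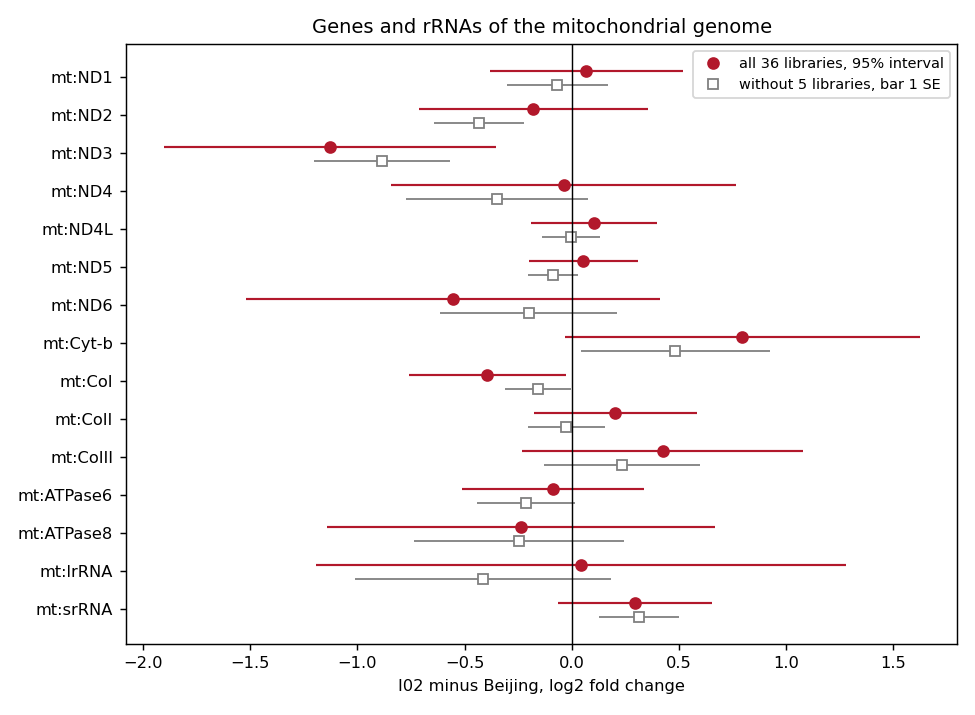
Log2 fold change of I02 over the Beijing mean (horizontal axis) for the 13 protein-coding genes and 2 rRNAs of the mitochondrial genome. Circles with 95% intervals use all 36 libraries, and squares with bars of 1 SE leave out the 5 multi-aligned libraries. None passed the test, with values from -1.13 for mt:ND3 to 0.80 for mt:Cyt-b.

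Nuclear genes for mitochondrial proteins had 0 calls against the Beijing mean in any list. Shares are read against all genes, of which 3.96% were higher and 3.98% lower at an unadjusted p under 0.05, with a median log2 fold change of 0.01. Of 39 nuclear complex I genes 1 was higher at that level and 0 lower, with a median of 0.10. Of 52 genes of complexes II to V 1 was higher, ATPsynB of the ATP synthase stator at 0.29 (interval 0.02 to 0.57), and 0 lower, with a median of 0.07. Of 71 mitochondrial ribosomal protein genes 2 were higher and 0 lower, with a median of 0.09. Of 16 genes of mitochondrial chaperones and quality control, and of 13 of mitochondrial DNA maintenance and expression, 0 reached that level, with medians of 0.10 and 0.01. Of 20 import genes 1 was higher, Tim13 at 0.32, and 1 lower, and the median was -0.03.

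The lower one was Tom40, which encodes the channel of the outer membrane through which most nuclear-encoded proteins enter. It ranged from 18.3 to 28.0 CPM in I02 with a median of 24.6, and from 21.2 to 45.8 CPM in Beijing with a median of 31.4, so that the groups overlapped. The log2 fold change was -0.40 ± 0.10 (95% interval -0.60 to -0.20, adjusted p = 0.227), -0.37 against B38 and -0.43 against B39. It was -0.43 (adjusted p = 0.297) without the 5 libraries.

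Among the tissues of the fly, genes of the photoreceptors lay lower in I02, although none passed the adjusted test. Of 36 tested, 0 were higher and 12 lower at an unadjusted p under 0.05. Of the 36, 30 lay below 0, where 47.3% of all genes did, and the median log2 fold change was -0.21. Their summed level ranged from 2423 to 7908 CPM in I02 with a median of 2933, and from 2597 to 7826 CPM in Beijing with a median of 3838, so that the groups overlapped over nearly all of their range. The list's median was -0.10 against B38 (2 genes higher and 5 lower, against 6.17% and 8.61% of all genes) and -0.37 against B39 (0 higher and 13 lower, all genes 3.15% and 3.33%), and -0.28 against the Beijing mean without the 5 libraries (0 higher and 14 lower, where 3.51% of all genes were lower). norpA, the phospholipase C of phototransduction, had -0.45 ± 0.13 (adjusted p = 0.319). Pdh, a retinol dehydrogenase of pigment cells, had -0.77 ± 0.23 (adjusted p = 0.339).

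All 19 neuronal genes lay below 0 (all genes 47.3%) against the Beijing mean, of which B38 is a part, with a median of -0.26. Of the 19, 7 were lower at an unadjusted p under 0.05 and 0 higher. The median was -0.11 and 5 were lower without the 5 libraries (all genes 3.51%). Against B39 the median was -0.09 and 3 were lower (all genes 3.33%). The genes with the lowest p were Sh at -0.45 (adjusted p = 0.227) and nrv3 at -0.35 (0.319). The summed level of the list was 973 to 1587 CPM in I02, 1353 to 2497 in B38 and 1052 to 1593 in B39. What shares of head and other tissue the pools held was not tested.

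Genes of the cytosolic ribosome lay on the other side. Of 90 tested, 13 were higher and 1 lower at an unadjusted p under 0.05. Above 0 lay 85 of the 90, where 52.7% of all genes did, and the median log2 fold change was 0.15. RpL30 had 0.32 ± 0.09 (adjusted p = 0.314). Without the 5 libraries 5 were higher (all genes 3.58%) and 1 lower, and the median was 0.10. Digestive serine proteases had 3 of 28 higher and 2 lower with a median of 0.12, and Jon66Ci, of the Jonah proteases of the midgut, had the lowest p, with 0.90 ± 0.26 (adjusted p = 0.319). It ranged from 5.10 to 74.5 CPM in I02 and from 2.29 to 35.6 CPM in Beijing, with medians of 29.3 and 14.0.

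Of 19 antimicrobial peptide genes 1 was higher and 1 lower, AttD at 0.95 (adjusted p = 0.472) and Mtkl, and the median was 0.18, but -0.10 without the 5 libraries. Of 33 genes of immune recognition and signalling 1 was higher, PGRP-SC1a at 0.62, and 1 lower, spz. Of 18 infection-induced peptide genes 0 were higher and 2 lower, and of 12 JAK/STAT and Turandot genes 0 and 2. Blood cell genes had 1 of 15 higher and 0 lower.

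Cuticle protein genes had 3 of 34 tested higher and 2 lower, and 58 of the 92 on the list held too few reads to be tested. Cpr72Ec stood at -0.89 ± 0.24 (adjusted p = 0.265) and Cpr67Fb at 0.55. Cytochrome P450 genes had 5 of 77 higher and 7 lower, and glutathione S-transferases and UDP-glycosyltransferases 3 of 58 higher and 1 lower. Of 29 testis and sperm genes 2 were higher and 0 lower, and of 9 Y-linked genes 0 either way. Of the Stellate genes of the X, which Y-linked repeats silence, 0 of 14 held enough reads to be tested.

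Seminal fluid genes, whose products males pass to females in mating, had 2 of 61 higher and 1 lower against the Beijing mean at an unadjusted p under 0.05, with a median log2 fold change of 0.06. Against B38 12 of 61 were higher (19.7%, all genes 6.17%) and 0 lower, 49 lay above 0 (all genes 52.8%) and the median was 0.20. Against B39 1 was higher and 3 were lower (all genes 3.15% and 3.33%), 46 lay below 0 (all genes 45.9%) and the median was -0.11. None was called in any of these comparisons, which share the I02 libraries. Leaving out the 5 libraries, 3 were higher against B38 (4.92%, all genes 3.42%), 46 lay above 0 (all genes 53.0%) and the median was 0.14.

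Of the lists not yet described, muscle (23), antioxidant (18), fat synthesis and storage (16), glycolytic (14), maltase and amylase (14), dosage compensation (7), female and egg (7) and metallothionein genes (6, tested members in parentheses) had 0 members at an unadjusted p under 0.05. Odorant-binding proteins had 1 of 35 higher and 1 lower, and neuropeptides 1 of 31 each way, Crz at 0.50 and Nplp3 at -0.74. Lysozymes had 2 of 5 higher, LysE at 0.26 and LysX at 0.88, and Osiris genes 1 of 4. Heat shock proteins had 1 of 10 lower, Hsp83 at -0.27, and fat body storage proteins 1 of 5 lower. No member of any list was called against the Beijing mean.

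**Figure D5:**
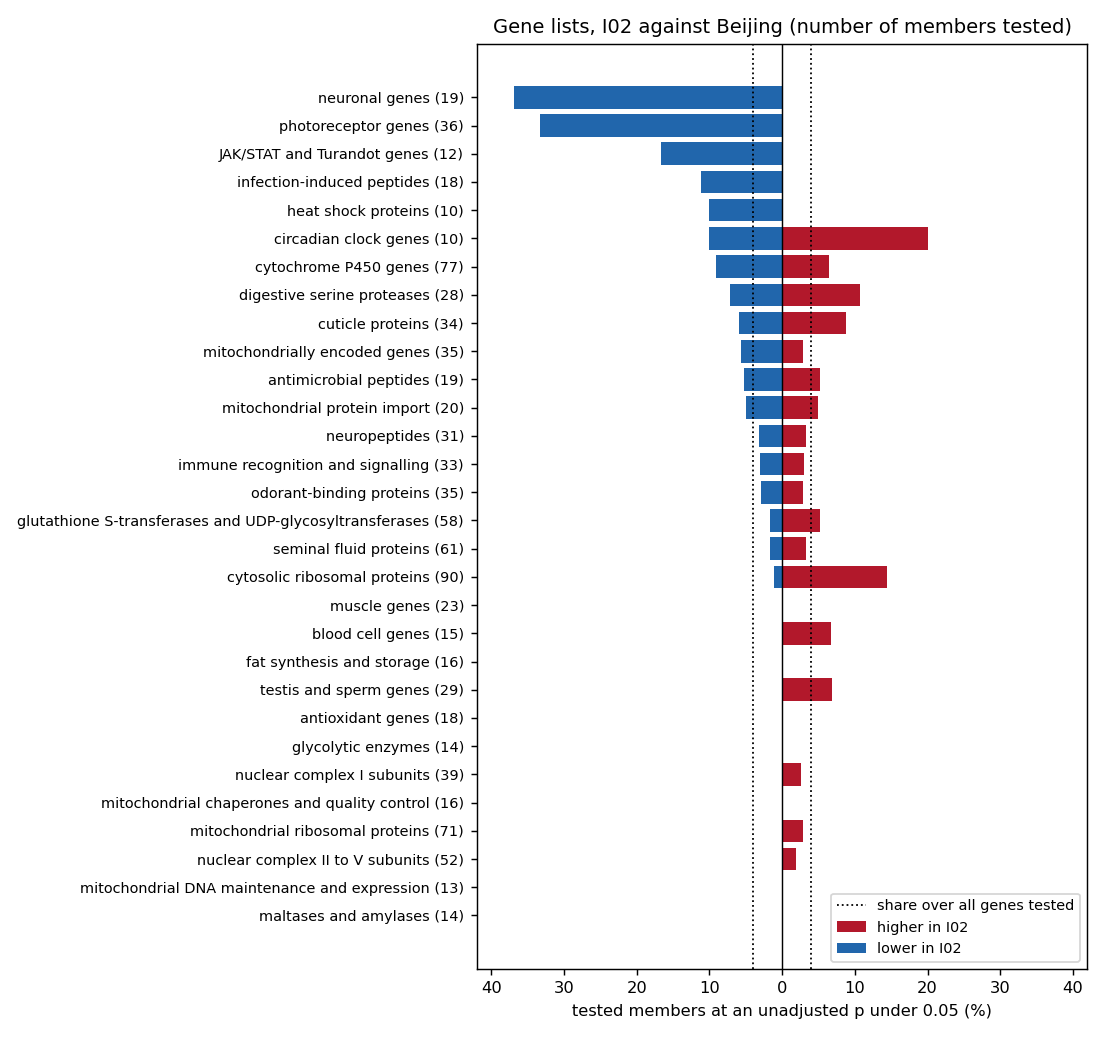
Share of the tested members of each gene list (lists of 10 or more) that were higher or lower in I02 than in the Beijing mean at an unadjusted p under 0.05 (horizontal axis, percent). Dotted lines mark the shares over all 12308 genes, 3.96% higher and 3.98% lower. Neuronal (36.8% lower), photoreceptor (33.3% lower), circadian clock (20% higher) and cytosolic ribosomal genes (14.4% higher) reach the highest shares for their direction.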

How the data were processed

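Whole-male RNA of 36 libraries was used, 12 per haplogroup. The authors deposited raw read counts per gene, and these were the values used. Tools in the submitters' processing notes are HTSeq 0.11.0, STAR 2.6, Trimmomatic 0.36, FastQC 0.11.5 and DESeq2 with no version. For genome build, annotation and strand setting the answer is "not given in the sources used here". Per the labels' protocols, libraries were made with the Lexogen QuantSeq 3' FWD kit from Trizol RNA. Normalized values, also deposited, were left out. Symbols (17037 of 17324 features) and coordinates come from Ensembl's annotation of BDGP6.54, matched by gene identifier.

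filterByExpr of edgeR 4.0.16 over the 18 combinations kept 12308 genes holding 99.9% of counts. After TMM scaling, a negative binomial model with haplogroup and Y haplotype was fitted by quasi-likelihood in R 4.3.3, with 28 residual degrees of freedom. I02 was tested against the unweighted mean of B38 and B39, against each, and against both, where the larger p-value counted. A model of the 18 combinations tested dependence on the Y. Adjusted p-values are Benjamini-Hochberg over all genes, 2-sided, with calls under 0.05. The SE is that implied by the F statistic. CPM values are not corrected for length. The counting interval is exact, at 95%. The scripts were tested on simulated data.

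The comparison, the 38 gene lists and the rules were chosen with earlier results of these data known. The rule names called genes of mean log2 CPM 2 or more, the 12 highest and the 12 lowest by log2 fold change, the 6 smallest adjusted p-values against both haplogroups, up to 4 called members per list (or the 2 with the smallest p-values) and up to 6 called genes of the test by Y. Other genes, among them lncRNA:CR45936, asRNA:CR44137, those called against 1 haplogroup alone, neighbours and most mitochondrially encoded genes, were chosen after their values were seen, and some genes are not reported here. Of the list symbols 1 was not matched. The alternatives tried were DESeq2 1.42.0, limma-voom of limma 3.58.1, other size factors, other models, no filter, and leaving out libraries.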

Additional observations from a re-analysis of the deposited data

How the results depend on the processing

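No called gene changed direction under any alternative. Against the Beijing mean, 12 genes were called with DESeq2, 16 with all 72 libraries and a batch term, and 1 without the libraries with more than 20%, or 19%, of multi-aligned reads (the limit of 19% was chosen after seeing the data), while leaving out single libraries gave 2 to 6. DESeq2 gave no adjusted p for kkv, lncRNA:CR45936 and asRNA:CR44137. Against both haplogroups 0 genes were called without the libraries over 20% or over 19%, and 1 without any single library. Against B38 the count was 202 with DESeq2, 14 without a filter on low counts, 5 in the model with interaction, 568 with 72 libraries, 2 without the libraries over 20% and 1 without those over 19%, and 4 to 517 without single libraries. Against B39 it was 33 with DESeq2, 5 with limma-voom, 4 with interaction, 30 with 72 libraries, 4 and 3 without the libraries over 20% and 19%, and 3 to 21 without single libraries. The test by Y called 2 genes with DESeq2 and 0 to 50 without single libraries. The cause of these differences was not tested. All other alternatives, apart from the replicate block given next, left these counts within 1.5 times.

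With the replicate number as a block, the counts were 4 against the Beijing mean, 207 against B38 and 13 against B39. The main fit holds no term for the replicate number, so a factor shared by same-numbered libraries would enter its spread. Same-numbered libraries deviated together in 99 of 153 pairs (r over 0.1, median 0.175, range -0.408 to 0.749). Of 36 libraries 1 was closest to its partner. All 5 libraries with more than 20% of multi-aligned reads are replicate 1. Whether the number marks such a shared factor was not tested. Depth limits kkv, lncRNA:CR45936 and asRNA:CR44137, which rest on at most 35 reads per library.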

Other observations

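Within I02, asRNA:CR44894 differed between the 2 libraries of each combination. It ranged from 0 to 2.26 CPM in the 6 libraries of replicate 1, with a median of 0.536, and from 0.661 to 11.3 CPM in those of replicate 2, with a median of 5.40, and was higher in replicate 2 on 6 of 6 Y haplotypes. This was noticed after the values were seen, and no cause was tested.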
